A study of Mus musculus with 8 samples.

Results

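The genes of the major histocompatibility complex (MHC) and of antigen presentation were followed in mouse cells 6 days into neural induction, with and without knockdown of Zrf1. The set was chosen by name: every probe that is not a control and whose gene name begins with H2-, together with the probes of B2m, Tap1, Tap2, Tapbp, Psmb8, Psmb9, Psmb10, Cd74 and Ciita. This gave 62 of the 55681 probes on the array, for 50 of its 36406 gene names. By role they comprised 3 probes of the classical class I genes H2-K1 and H2-D1, 35 probes of 27 non-classical class I (class Ib) genes, 7 probes of 7 loading genes and 15 probes of 12 class II genes. The remaining 2 probes, H2-Ke2 and H2-Ke6, carry an H2 name but encode no MHC molecule.

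Gene expression was measured on 8 single-colour Agilent arrays, 4 from control cells and 4 from knockdown cells. Both groups were embryonic stem cells taken through the neural induction protocol of Bibel and colleagues towards progenitors that the labels call RGC-like NPC, sampled at day 6, and 100 ng of total RNA went into each labelling. Control cells carried the hairpin shCtrl and knockdown cells the hairpin shZrf1, and Zrf1 stands as Dnajc2 in current annotation. The labels name no cell line, strain or clone and do not say whether the arrays come from separate cultures, so p-values measure the spread between these samples, which may be technical. The file names of knockdown arrays 2 and 4 repeat the numbers of arrays 1 and 3 with the added letters TR, whose meaning the labels do not give. If these arrays repeat the RNA of arrays 1 and 3, the knockdown group holds 2 samples and not 4, and the p-values below, which count 4, are then too small. With each such pair averaged 31 probes of the set were still called higher and 3 lower, and with arrays 2 and 4 left out 30 and 3. Arrays lay on 3 slides, with control 1 and knockdown 4 on slide 1, control 2 and knockdown 1 on slide 2, and the other 4 arrays on slide 3. A level is the log2 of a probe's signal after the array's own 75th percentile is subtracted on that scale, and a change is knockdown minus control. Between 53.4% and 60.3% of the 59305 spots per array were well above background. Dnajc2 had a log2 signal of 1.87 ± 0.11 (SD, n = 4) in control and -2.32 ± 0.23 (SD, n = 4) in knockdown arrays. Each control array read 16 of 16 neural progenitor markers well above background, but also 15 of 15 embryonic stem cell markers. On all 4 knockdown arrays 15 of the 16 neural markers were read so as well. Detection of these markers is therefore no check of the label.

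MHC class I molecules present peptides from inside the cell to CD8 T cells. The proteasome cuts these peptides, the transporter formed by Tap1 and Tap2 carries them into the endoplasmic reticulum, tapasin (Tapbp) holds the transporter and the empty class I molecule together, and B2m is the light chain that every mature class I molecule needs. Class II molecules present peptides from endosomes to CD4 T cells, are escorted there by the invariant chain Cd74, and are loaded by H2-DM under the restraint of H2-O. Class I genes are expressed in most tissues and are low in early embryonic and neural cells, class II genes are mainly expressed in antigen-presenting cells, and interferon raises both.

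The class I genes are close copies of each other, which bears on what a probe can tell. Aligning the 62 probe sequences, each of 60 bases, with all other probes on the array found 13 that share at least 30 aligned bases with another probe. Of these 13 probes 11 belong to class I and 2 to class II, 0 belong to the loading genes, and 10 were tested. The 2 H2-K2 probes, and the 2 of class II, both of H2-Ab1, match only the other probe of their own gene. Only probes were compared, so a probe without a match may still read more than 1 gene. Sequences of some probes that match the probe of another gene are shown 5′ to 3′. They bear on how far a signal belongs to 1 gene, and bases that differ between the partners of each pair are in capitals. The first pair carries the names H2-Q2 and H2-Q10, and 4 of 46 aligned bases differ.
H2-Q2 (A_51_P425048, chr17:35460007-35460066, mm9): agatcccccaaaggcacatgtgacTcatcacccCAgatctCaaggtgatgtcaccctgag
H2-Q10 (A_55_P1995092, chr17:35610036-35610095, mm9): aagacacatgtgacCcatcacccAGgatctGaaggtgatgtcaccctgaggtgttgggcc
The second pair was designed on H2-K1 and on Gm11127, a class I-like gene outside the set, and 2 of 35 aligned bases differ.
H2-K1 (A_55_P2049647, chr17:34133984-34134043, mm9): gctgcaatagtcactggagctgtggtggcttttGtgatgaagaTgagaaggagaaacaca
Gm11127 (A_55_P2125049, chr17:36193272-36193331, mm9): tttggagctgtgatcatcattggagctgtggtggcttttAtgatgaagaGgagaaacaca
The H2-T23 probe also shares 41 bases with the Gm11127 probe, with 2 differences, which stand in capitals.
H2-T23 (A_51_P237754, chr17:36167338-36167574, mm9): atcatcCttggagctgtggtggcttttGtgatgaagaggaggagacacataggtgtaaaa
Closely related transcripts could therefore add to 1 signal, and changes of class I genes below are changes of probes that carry those names.

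Most measured genes of class I, class II and peptide loading were higher in knockdown cells. A probe was tested where every array of 1 group or of both read it well above background, which held for 37 of the 62. In the limma fit 31 of the 37 were called higher and 3 lower at an adjusted p under 0.05, with a median change of 1.13. Across the whole array 16602 of 29097 tested probes were called (57.1%), 8438 of them higher (29%) and 8164 lower (28.1%), with a median change of 0.05. The groups did not overlap for 34 of the 37 tested probes, against 54.1% of all tested probes. The probes that passed the filter may have passed because 1 group was high, so these counts describe them and not all 62. With no filter on dim probes the median change was 0.57 over all 62 probes and 0.12 over all 55681 of the array, a distance of 0.44, and 31 were again higher and 3 lower. Counted by gene with the brightest tested probe, 27 of 32 genes were higher and 3 lower, while 57.6% of genes were called across the array by the same count, 29.1% higher and 28.5% lower. The rise was at least 2-fold for 21 of those 27 genes.

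The counts of higher probes changed little with scaling. Scaling by the median of each array moved the median change of all probes from 0.05 to -0.12 and the share of higher calls among all calls from 50.8% to 37.7%. Under that scaling 29 of the 37 probes were higher and 4 lower, with a median change of 0.96. The distance between their median and that of all probes was 1.08 under both scalings. It could not differ, since both subtract a constant from each array. With quantile normalization, normexp and the authors' values, which can move it, that distance was 1.15, 0.96 and 1.13. Within slides 1, 2 and 3 the median change of the 37 probes was 1.16, 1.12 and 1.15. All 31 probes called higher had a positive change on each slide, and all 3 called lower had a negative one. Their groups did not overlap, which fixes these signs, so the signs add no separate evidence.

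**Figure D1:**
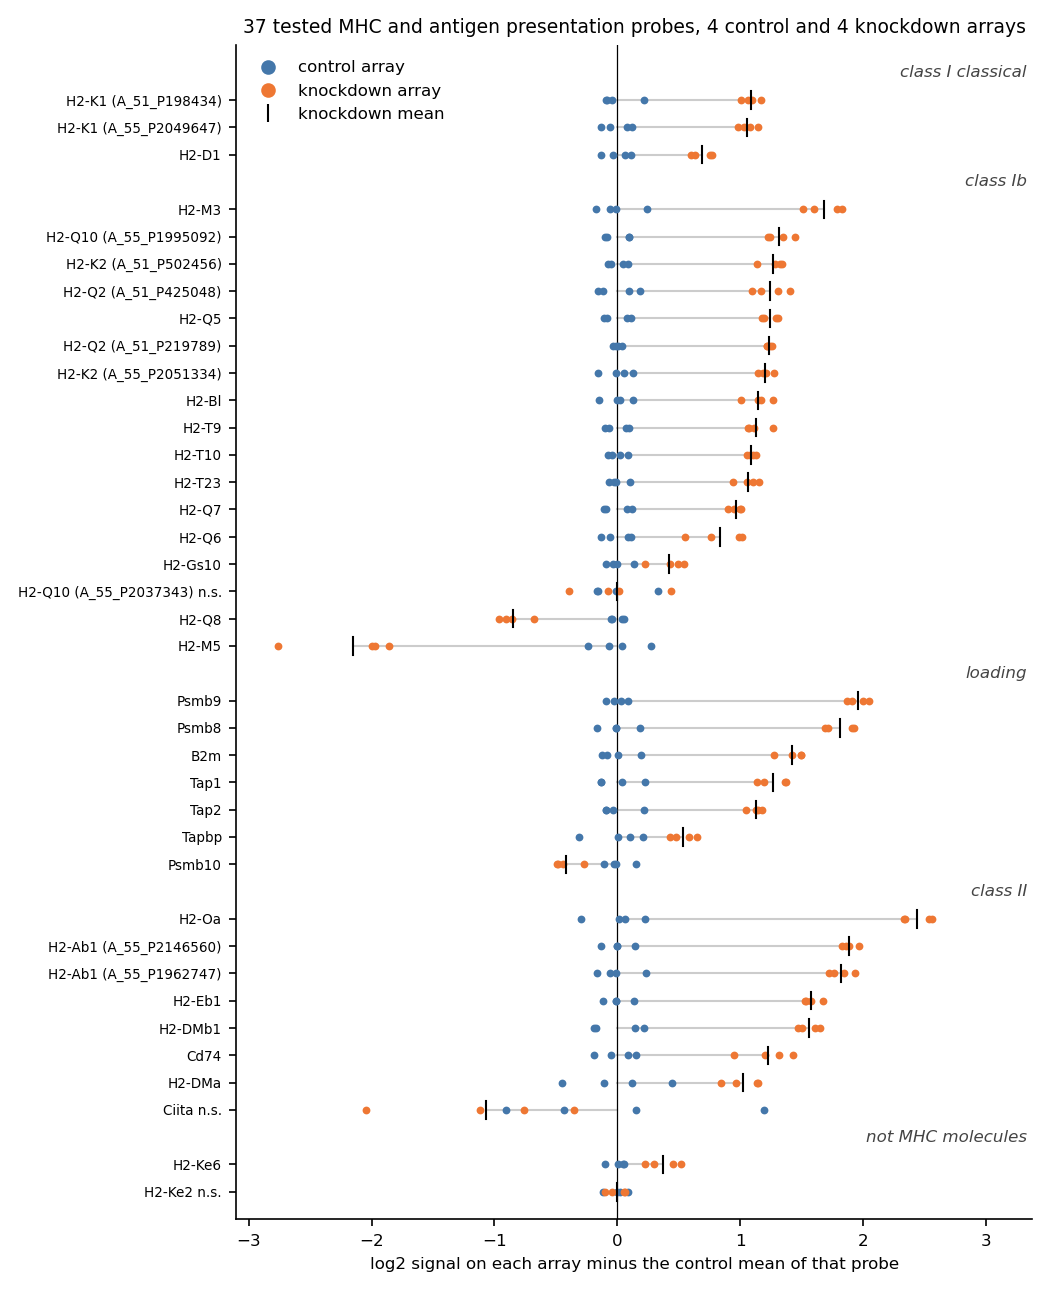
Log2 signal of each of the 37 tested probes on every array, relative to the control mean of that probe, by class (n.s. marks the 3 probes that were not called, and a gene with more than 1 tested probe carries the probe name). Orange knockdown points lie right of all blue control points for the 31 higher probes and left of them for H2-M5, H2-Q8 and Psmb10, with the largest rise, 2.44, at H2-Oa; with median scaling H2-Gs10 and H2-Ke6 lose their call.

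The classical class I genes encode the polymorphic molecules that present peptides on nearly all nucleated cells. H2-K1, with 10 spots of its brighter probe on each array (chr17:34133055-34133114, mm9), read 3.45, 3.50, 3.75 and 3.45 in control arrays 1 to 4 and 4.71, 4.64, 4.61 and 4.55 in knockdown arrays 1 to 4. The knockdown arrays all lay above the control arrays, and the change was 1.08 (SE 0.09), which is 2.12-fold (limma adjusted p = 1.50e-05). Its other probe, shown above, changed by 1.06 (SE 0.08). H2-D1 (chr17:35403886-35403945, mm9) had signals of 1.99, 2.04, 1.89 and 1.79 in control and 2.53, 2.56, 2.70 and 2.68 in knockdown arrays. The groups were again separate, with a smaller rise of 0.69 (SE 0.08), or 1.61-fold (limma adjusted p = 0.000131). On each array the H2-D1 signal minus the H2-K1 signal was taken, which does not depend on scaling, and this difference was 0.39 lower in knockdown cells by the means (-0.39). The exact permutation test over the 70 splits of the arrays, two-sided, gave p = 0.0286, the smallest p it can give, and 0.0476 adjusted over the 5 differences tested. The groups were separate only narrowly, with the difference at -1.868 in knockdown 4 and -1.864 in control 3. Within slides 1, 2 and 3 the change of the difference was -0.41, -0.72 and -0.23. With arrays exchanged only within their slide, which leaves 24 splits, the exact permutation test cannot go below p = 0.0833, the value it gave here, and so cannot pass.

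Class Ib genes encode less polymorphic molecules, several of which present special peptides or engage receptors of natural killer cells. Of 17 tested probes 14 were higher and 2 lower, with a median change of 1.13. The largest rise was that of H2-M3, which presents formylated peptides, from -2.49, -2.31, -2.06 and -2.37 in control to -0.79, -0.48, -0.52 and -0.71 in knockdown arrays. That is a change of 1.68 (SE 0.11), or 3.21-fold with no overlap between groups (limma adjusted p = 5.95e-06). H2-T23, which encodes Qa-1 and presents leader peptides of other class I molecules to NKG2 receptors, went from 1.67, 1.84, 1.71 and 1.73 to 2.68, 2.84, 2.89 and 2.79. It changed by 1.06 (SE 0.07), with separate groups (limma adjusted p = 6.61e-06). H2-T10, whose product binds receptors of some gamma delta T cells, and its neighbour H2-T9 changed by similar amounts. H2-T9 read -0.87, -0.84, -1.002 and -1.04 in control and 0.18, 0.33, 0.14 and 0.13 in knockdown arrays, a change of 1.13. For H2-T10 the signals were -0.71, -0.78, -0.88 and -0.84 in control and 0.25, 0.30, 0.28 and 0.32 in knockdown arrays, a change of 1.09. Both genes were separate between groups (limma adjusted p = 7.21e-06 and 2.56e-06).

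Among the H2-Q genes, which encode Qa molecules, 6 of 8 tested probes were higher, 1 was lower and 1 was not called. H2-Q2 had nearly equal signals within each group at its brighter probe, with 2.98, 3.06, 3.01 and 3.02 in control and 4.24, 4.28, 4.24 and 4.26 in knockdown arrays. It rose by 1.23 (SE 0.06; limma adjusted p = 8.05e-07), and the other probe named H2-Q2, shown above, rose by 1.24. That other probe maps 22.1 kb away, nearer to the untested H2-Q1 probe (chr17:35461859-35461918, mm9). Which of the 2 genes it reads was not tested. H2-Q5, whose probe has no mapped position in the files, read 3.00, 3.03, 2.82 and 2.84 in control and 4.21, 4.12, 4.10 and 4.23 in knockdown arrays and changed by 1.24. H2-Q7, a gene of the Qa-2 antigen, went from 2.43, 2.47, 2.26 and 2.24 to 3.30, 3.35, 3.25 and 3.35, a change of 0.96. The neighbouring H2-Q6 rose less evenly, from 0.74, 0.77, 0.52 and 0.59 to 1.21, 1.42, 1.65 and 1.67. Its change of 0.83 (SE 0.12) was 0.44 within slide 2, where knockdown 1 lay, and 0.93 and 0.98 within slides 1 and 3. Its probe shares 54 of 54 aligned bases with the probe of an unnamed transcript, which changed by 0.83 as well, so the pair counts as 1 measurement. H2-Gs10, called H2-Q4 in the current gene table, changed least of the class Ib genes called higher. Its signals were 5.06, 5.0001, 5.09 and 5.23 in control and 5.32, 5.59, 5.64 and 5.53 in knockdown arrays, a change of 0.42 (limma adjusted p = 0.00415). With median scaling this change was 0.25 and was not called (limma adjusted p = 0.179), nor was it with knockdown 2 and 4 left out (limma adjusted p = 0.0538; probe H2-Gs10 A_55_P1956302).

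The 2 tested H2-Q10 probes disagreed. H2-Q10 encodes a secreted class I molecule known mainly from liver. The probe shown above with its H2-Q2 partner read 0.03, 0.03, -0.16 and -0.14 in control and 1.29, 1.16, 1.19 and 1.39 in knockdown arrays, a change of 1.32 with separate groups (limma adjusted p = 4.21e-06). The probe 1.41 kb away (A_55_P2037343) read -2.84, -3.00, -2.50 and -2.99 in control and -3.22, -2.39, -2.82 and -2.91 in knockdown arrays. Its groups overlapped and its mean did not move beyond the spread (SE 0.19; limma adjusted p = 0.990). The first probe resembles the probe named H2-Q2 that is shown with it, whose change was 1.24. The second shares 37 aligned bases, with 1 mismatch and 1 gap, with the untested H2-T3 probe. Which transcripts either probe reads was not tested.

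H2-K2 and H2-Bl, a pair of further class I genes, followed the common pattern. The H2-K2 probes are annotated to a non-coding RefSeq transcript. H2-K2 read 2.57, 2.64, 2.50 and 2.36 in control and 3.79, 3.71, 3.66 and 3.73 in knockdown arrays, a change of 1.20, and its other probe, which shares 35 bases with it, changed by 1.27. For H2-Bl the signals were 0.87, 0.97, 0.85 and 0.70 in control and 2.02, 1.86, 2.00 and 2.12 in knockdown arrays, a change of 1.15. The groups were separate at each of these 3 probes.

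A pair of class Ib genes went the other way. H2-Q8, another Qa-2 family gene (chr17:35532392-35532451, mm9), read 1.35, 1.27, 1.37 and 1.26 in control and 0.63, 0.41, 0.35 and 0.46 in knockdown arrays. All knockdown arrays were below all control arrays, a change of -0.85 (SE 0.08) or 1.80-fold lower (limma adjusted p = 3.39e-05). H2-M5 (chr17:37121007-37121066, mm9), at the far end of the complex, read -3.01, -3.18, -2.90 and -2.67 in control and -5.70, -4.94, -4.79 and -4.91 in knockdown arrays. With 4 control and 0 knockdown arrays well above background, it was called lower (limma adjusted p = 4.62e-05). From the processed signals the bound on its fall was at least 2.64-fold. That bound does not hold under other background handling, since the change of the probe H2-M5 A_55_P2135079 was -0.53 with normexp and -0.69 in the authors' values, where it was called as well. A second H2-M5 probe passed the background on 0 arrays. Of the class Ib genes 13 had no tested probe (H2-M1, H2-M2, H2-M9, H2-M10.1, H2-M10.2, H2-M10.3, H2-M10.4, H2-M10.6, H2-M11, H2-Q1, H2-T3, H2-T18 and H2-T24).

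The loading genes had 6 higher and 1 lower of 7, all tested, with a median change of 1.27. B2m (chr2:121978401-121978460, mm9) read 3.07, 3.11, 3.39 and 3.20 in control and 4.69, 4.69, 4.62 and 4.47 in knockdown arrays. The groups did not overlap, and the change was 1.42 (SE 0.09), or 2.68-fold (limma adjusted p = 4.76e-06). Tap1, whose probe stood in 10 spots per array, was dim, at -3.59, -3.43, -3.24 and -3.60 in control and -2.27, -2.33, -2.09 and -2.10 in knockdown arrays. It changed by 1.27 (SE 0.10; limma adjusted p = 1.79e-05). This dim probe (Tap1 A_51_P100327) changed by 0.72 after a normexp background correction and by 0.53 in the authors' values, and was called in both. Its partner Tap2 went from -0.15, -0.10, 0.16 and -0.15 to 1.07, 0.99, 1.12 and 1.09, a change of 1.13 (SE 0.09; limma adjusted p = 1.20e-05). Both chains of the transporter were separate between groups. The difference of Tap2 minus Tap1 changed by -0.14, which did not pass the exact permutation test (p = 0.0571, 0.0714 adjusted over 5 differences). That difference turned to 0.30 with a normexp background correction and to 0.54 in the authors' values (exact permutation, 0.0357 adjusted in both cases, for Tap2 minus Tap1), so no order of the 2 changes is given. Tapbp had signals of 1.05, 1.15, 0.64 and 0.95 in control and 1.37, 1.43, 1.53 and 1.60 in knockdown arrays. It was the least changed of the loading genes that rose, by 0.54 (SE 0.12; limma adjusted p = 0.00475), and by 0.22 within slide 2.

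The inducible proteasome subunits did not move as 1 unit. In cells exposed to interferon gamma, Psmb8, Psmb9 and Psmb10 take the places of Psmb5, Psmb6 and Psmb7 in newly made proteasomes, the immunoproteasome. Psmb9, the largest rise among loading genes, went from 0.01, -0.17, -0.11 and -0.06 to 1.92, 1.82, 1.79 and 1.97. It changed by 1.96 (SE 0.07), or 3.88-fold (limma adjusted p = 3.40e-07). Psmb8 went from -1.86, -1.67, -2.01 and -1.86 to 0.07, -0.14, -0.16 and 0.06, a change of 1.81 (SE 0.10), or 3.50-fold (limma adjusted p = 1.93e-06). The groups of both genes were separate by more than the range within either group. Psmb10, whose gene lies outside the complex (chr8:108459677-108459736, mm9), fell, with 3.40, 3.49, 3.66 and 3.48 in control and 3.24, 3.02, 3.02 and 3.07 in knockdown arrays. The change was -0.42 (SE 0.08), 1.34-fold lower (limma adjusted p = 0.00277).

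Against the constitutive subunit that each replaces, 2 of the 3 inducible subunits rose. The within-array difference of Psmb8 minus Psmb5 was 2.37 higher in knockdown arrays, with means of -8.98 in control and -6.62 in knockdown. That of Psmb9 minus Psmb6 was 1.94 higher, with means of -7.58 and -5.64. The signals of both inducible subunits thus stayed far below those of the constitutive ones. Each of the 2 differences gave p = 0.0286 in the exact permutation test, two-sided, the smallest p it can give, and 0.0476 adjusted over the 5 differences. Within slides 1, 2 and 3 the first was 2.45, 2.02 and 2.50 higher and the second 1.80, 2.01 and 1.98, and with arrays exchanged only within slides both gave the smallest p of that exact permutation test, 0.0833. Psmb5 itself fell by 0.56 (limma adjusted p = 0.00130), while Psmb6 changed by 0.01 and was not called. The difference of Psmb10 minus Psmb7 changed by -0.14 (exact permutation p = 0.771, adjusted 0.771), with control 3 far from the other control arrays, and by 0.11 without it. Within slides 1, 2 and 3 it changed by 0.01, 0.41 and -0.48.

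**Figure D2:**
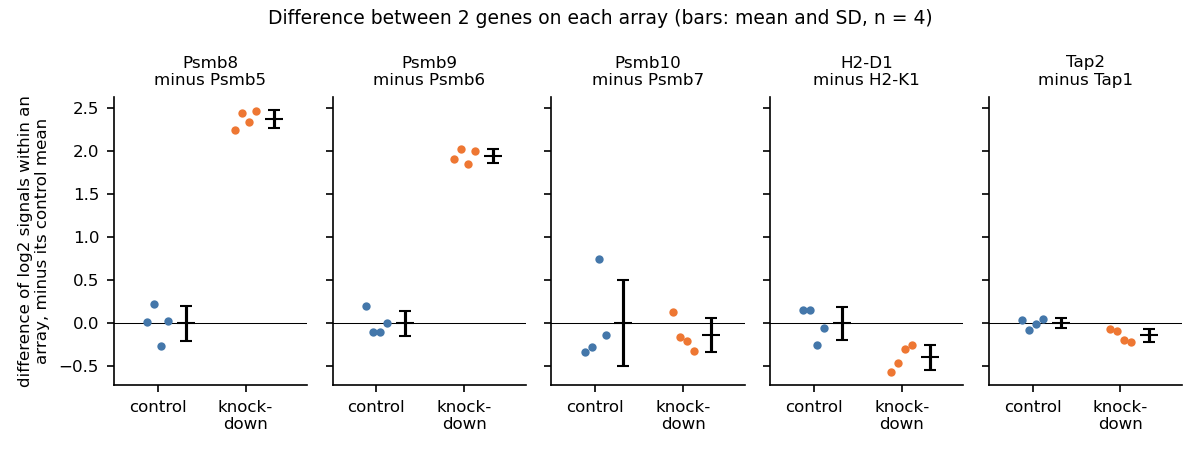
Within-array difference of log2 signals between 2 genes, minus its control mean, for control (blue) and knockdown (orange) arrays, with mean and SD (n = 4). The Psmb8 and Psmb9 differences rose by 2.37 and 1.94 with no overlap, the H2-D1 minus H2-K1 difference changed by -0.39, the Psmb10 difference overlapped between groups, and the Tap2 minus Tap1 difference changed by -0.14 here but turned sign with another background correction.

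Of 8 tested class II probes 7 were higher and 0 lower, with a median change of 1.57. H2-Oa, the alpha chain of H2-O, changed most of all 37 probes (chr17:34232033-34232092, mm9). Its signals were -2.22, -2.06, -2.27 and -2.58 in control and 0.25, 0.06, 0.05 and 0.28 in knockdown arrays. That is a change of 2.44 (SE 0.12), or 5.43-fold, with separate groups (limma adjusted p = 1.31e-06). H2-Ab1, the beta chain of the I-A molecule (chr17:34406296-34406355, mm9), read 0.48, 0.38, 0.78 and 0.53 in control and 2.48, 2.31, 2.27 and 2.39 in knockdown arrays. The groups lay far apart, with a change of 1.82 (SE 0.10), or 3.52-fold (limma adjusted p = 1.99e-06). Its other probe shares 51 bases with it and, at 1.89, is no independent measurement. H2-Eb1, the beta chain of I-E, went from -1.69, -1.59, -1.44 and -1.59 to -0.05, -0.05, 0.09 and -0.000835, a change of 1.58 (SE 0.07; limma adjusted p = 1.08e-06).

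The chains that load class II molecules also rose. H2-DMb1, the beta chain of H2-DM, read -1.74, -2.14, -2.13 and -1.81 in control and -0.31, -0.34, -0.45 and -0.48 in knockdown arrays and so changed by 1.56 (SE 0.11; limma adjusted p = 8.17e-06). H2-DMa, the alpha chain, read -1.44, -1.20, -1.78 and -0.88 in control and -0.18, -0.48, -0.36 and -0.19 in knockdown arrays. Its control arrays were the most scattered of the genes called higher, and the change was 1.02 (SE 0.18; limma adjusted p = 0.00156). The invariant chain Cd74 went from -1.41, -1.47, -1.75 and -1.62 to -0.25, -0.14, -0.61 and -0.36, a change of 1.22 (SE 0.12; limma adjusted p = 5.31e-05). All 3 genes had knockdown arrays above every control array.

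Several class II genes were too dim to test. H2-Aa, which pairs with the H2-Ab1 product, passed the background on 0 arrays and read -5.11, -5.99, -6.46 and -5.59 in control and -4.67, -5.32, -5.28 and -4.55 in knockdown arrays. H2-Ea-ps, named H2-Ea in the current table, H2-DMb2, H2-Eb2 and H2-Ob, the beta chain partner of H2-Oa, also had no tested probe. Of the 3 H2-Ob probes 1 was above background on 1 control and 1 knockdown array, and H2-Eb2 was on 2 control arrays. Over all classes 25 probes of the set were untested, and 17 of them passed the background on 0 arrays.

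The class II transactivator Ciita, which switches on class II genes, was not called. Its probe (chr16:10526568-10526627, mm9) read -2.82, -2.23, -3.29 and -1.19 in control and -3.50, -4.43, -3.15 and -2.74 in knockdown arrays. The groups overlapped, with a change of -1.07 (SE 0.50; limma adjusted p = 0.104), and 4 control but 2 knockdown arrays were well above background. With median scaling it was called lower, at -1.24 (limma adjusted p = 0.0426; probe Ciita A_55_P2179074). The probe sequence is of low complexity, and which transcripts it reads was not tested.

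The remaining H2 names are no MHC molecules. H2-Ke6, a steroid dehydrogenase gene in the complex, read 3.66, 3.82, 3.77 and 3.81 in control and 4.28, 4.22, 4.00 and 4.06 in knockdown arrays and so changed by 0.37 (SE 0.08; limma adjusted p = 0.00519). With median scaling it was 0.20 and not called (limma adjusted p = 0.207; probe H2-Ke6 A_55_P2073526). H2-Ke2, the prefoldin subunit gene Pfdn6, changed by -0.01 (SE 0.07) and was not called.

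By class the median changes ran from 1.06 for classical class I (3 probes) and 1.13 for class Ib (17 probes) to 1.27 for loading (7 probes) and 1.57 for class II (8 probes). The ranges within classes overlap, from 0.69 to 1.08 in classical class I, from -2.15 to 1.68 in class Ib, from -0.42 to 1.96 in loading and from -1.07 to 2.44 in class II. No test between classes was made, since probes of 1 class are not replicates. With the authors' values the class II median was 1.17 against 1.15 for classical class I, and with no filter on dim probes the medians were 0.83 for class II, 1.27 for loading, 1.06 for classical class I and 0.42 for class Ib. The order of the classes therefore depends on the background handling and on the filter.

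Most of these genes lie in the MHC region, which also holds many unrelated genes. Between the Tapbp and H2-M2 probes, 3.55 Mb of chromosome 17 (chr17:34065963-37618101, mm9), 31 tested probes of the set lay beside 167 other tested probes. Of the 31 probes 27 were higher and 2 lower, with a median change of 1.13. Of the 167 other probes, which carry 135 names, 46 were higher (27.5%) and 59 lower (35.3%), with a median change of -0.00041. The share of higher calls among these 167 was near the 29% of the whole array. However, the 167 are neither all independent nor all unrelated to the set. Several lower calls are repeated probes of 1 locus without a gene name. Several higher calls are probes of unnamed transcripts among the H2-Q and H2-T genes, where some other probes were lower. No count without such probes was made. Chosen after their values were seen, the inflammatory cytokine genes Tnf and Ltb rose by 2.21 and 1.35, and the complement gene C2 rose by 1.98, while Notch4, also in the region, fell by 2.77. The class I-like genes Gm8909 and Gm11127, whose probes resemble that of H2-T23, rose by 1.33 and 1.31. Of the 4 tested genes of the set mapped elsewhere, B2m (chromosome 2) and Cd74 (chromosome 18) were higher, Psmb10 (chromosome 8) was lower and Ciita (chromosome 16) was not called.

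**Figure D3:**
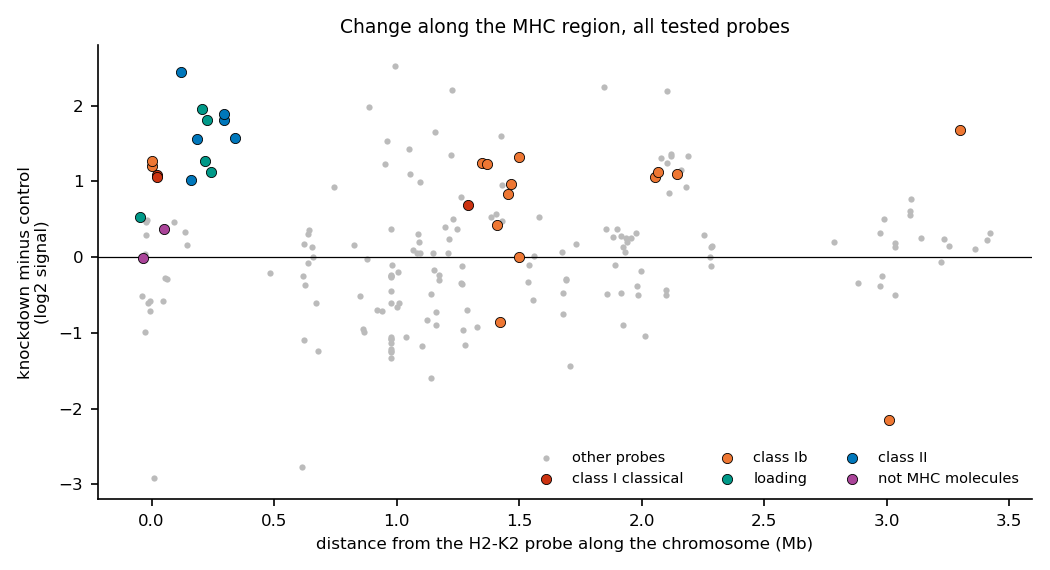
Change in log2 signal of each tested probe against its distance in Mb from the H2-K2 probe, for the 31 probes of the set by class (large points) and the 167 other probes of the region (grey). The class II and loading probes between 0 and 0.5 Mb all lie above 1, Tapbp lies left of 0 at 0.54, and the grey points spread on both sides of 0.

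Promoter sequences are shown for 4 genes that rose, because known control elements of MHC genes stand in them. RefSeq promoter windows (GRCm38.p6, 250 bases before to 50 after the start) were held for 36 of the 50 genes, 19 of them with a probe called higher. Windows of Cd74, Ciita, H2-Ab1, H2-Bl, H2-Ea, H2-K2, H2-Q1, H2-Q5, H2-Q8, H2-T10, H2-T18, H2-T24, H2-T9 and Tap2 were not used here. Each motif was searched on both strands in 32851 promoter windows of that length. The kappa B element of class I enhancer A stood in 35 windows of all genes (0.107%) and in those of H2-K1, H2-D1, H2-Q6 and H2-Q7, 4 of the 19 higher genes. These genes are close copies, so their matches are not independent. The interferon response element stood in 3.44% of all windows and in those of B2m and H2-T23. The sequence TAGCAAC, searched for as the X box of class II promoters, stood in 3.66% of all windows. It stood in 3 of the 36, those of H2-Eb1, which was higher, and of H2-Ob and H2-Eb2, which were not tested. The gamma activated site TTCNNNGAA stood in 8.3% of all windows and in 4 of the 36, those of Psmb8 and H2-M3, which were higher, and of H2-DMb2 and H2-M11, which were not tested. The shorter TGACG and CCAAT, in 20.8% and 37.4% of all windows, stood in 8 and 16 of the 19 and in 14 and 29 of the 36. In H2-Eb2 TAGCAAC lay nearer the start than CCAAT, whereas in H2-Eb1 and H2-Ob it lay farther from the start. Whether the H2-Eb2 match is an X box was not tested. Motifs were counted separately, and a place may serve more than 1 of them. The 250 bases before the start follow, on the strand of the gene, with the element in capitals.
H2-K1 (chr17:34000348-34000597, minus strand, kappa B): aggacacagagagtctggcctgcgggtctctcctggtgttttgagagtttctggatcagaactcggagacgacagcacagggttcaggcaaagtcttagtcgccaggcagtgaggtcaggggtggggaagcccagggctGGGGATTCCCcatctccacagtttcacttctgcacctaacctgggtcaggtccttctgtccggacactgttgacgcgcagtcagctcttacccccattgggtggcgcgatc
H2-D1 (chr17:35262844-35263093, plus strand, kappa B): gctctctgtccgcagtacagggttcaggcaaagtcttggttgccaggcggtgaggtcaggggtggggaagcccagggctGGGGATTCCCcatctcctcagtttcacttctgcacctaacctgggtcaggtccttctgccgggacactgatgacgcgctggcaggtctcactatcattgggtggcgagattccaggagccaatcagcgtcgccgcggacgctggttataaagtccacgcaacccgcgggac
B2m (chr2:122147437-122147686, plus strand, interferon response element read on the other strand): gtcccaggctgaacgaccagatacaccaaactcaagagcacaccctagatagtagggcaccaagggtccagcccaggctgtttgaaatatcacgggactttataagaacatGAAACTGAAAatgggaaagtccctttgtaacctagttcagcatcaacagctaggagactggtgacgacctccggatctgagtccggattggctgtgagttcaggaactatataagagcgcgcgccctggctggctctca
H2-Eb1 (chr17:34305617-34305866, plus strand, X box): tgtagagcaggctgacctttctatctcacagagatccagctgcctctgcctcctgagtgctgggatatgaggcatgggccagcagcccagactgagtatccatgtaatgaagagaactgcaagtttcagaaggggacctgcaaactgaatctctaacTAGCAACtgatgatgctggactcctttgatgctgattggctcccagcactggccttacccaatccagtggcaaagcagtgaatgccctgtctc
The element began 111 bases before the start in H2-K1, 171 in H2-D1, 139 in B2m and 93 in H2-Eb1. The start is the first one listed for each gene, and the distances depend on that choice. Tap1 and Psmb9 are transcribed away from each other, and their windows share 275 bases, and their probes rose by 1.27 and 1.96. A match is a description of the sequence and shows no binding.

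The lists of related genes are read against the whole array, where 29.1% of tested genes were higher and 28.5% lower. A gene was tested where every array of 1 group or of both read it well above background. Some genes may have passed because 1 group was high, so the list counts describe the tested genes only. Of 16 tested regulators of class I genes and of interferon signalling 6 were higher (37.5%) and 5 lower (31.2%), shares near those of the array, with a median change of 0.05. Stat2 rose 2.83-fold (limma adjusted p = 1.81e-06), Irf8 2.21-fold (2.34e-05) and Socs1 1.78-fold (8.36e-05), while the interferon gamma receptor chain Ifngr1 was 1.97-fold lower (4.96e-06). Nlrc5, the class I transactivator, was named after its value was seen. It was well above background on 0 control and 4 knockdown arrays and, from the processed signals, was at least 1.91-fold higher (limma adjusted p = 0.000190). Irf1 and Jak2 were not called. Of 6 tested class II regulators 1 was higher, Nfya by 1.71-fold (limma adjusted p = 0.00694), and 3 were lower, among them Nfyc by 4.25-fold (2.60e-07), Creb1 by 3.45-fold (4.50e-07) and Rfxap by 1.57-fold (0.000555). With knockdown 2 and 4 left out the class I list had 3 lower genes and the class II list 0 higher.

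Of 26 tested interferon-stimulated genes, a broader readout of the pathway, 9 were higher (34.6%) and 7 lower (26.9%), near the 29.1% and 28.5% of the array, with a median change of 0.05, equal to that of all probes. On all control arrays 22 genes of this list were well above background, and on all knockdown arrays 26. Bst2 rose 4.44-fold (limma adjusted p = 7.95e-07) and the chemokine gene Cxcl10 4.64-fold (1.95e-06), while Oasl2 was 10.1-fold lower (9.24e-07) and Ifitm1 2.30-fold lower (1.46e-06).

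Of 18 tested genes that supply peptides and assemble class I molecules 4 were higher (22.2%) and 7 lower (38.9%), against 29.1% and 28.5% of the array, with a median change of -0.16. The chaperones Hspa5 and Calr rose 2.02-fold and 1.45-fold (limma adjusted p = 4.40e-06 and 0.000311), and the peptidases Npepps and Tpp2 were 1.60-fold and 1.73-fold lower (5.14e-05 and 0.000151). The count of higher genes in this list was 2 with median scaling and with the replicate number as a block. Of 8 tested genes of class II antigen processing 6 were higher (75%) and 1 lower (12.5%), with a median change of 0.68. Ifi30, a thiol reductase of lysosomes, rose 6.41-fold (limma adjusted p = 1.42e-06), the asparaginyl peptidase Lgmn 3.25-fold (1.19e-06), the tetraspanin Cd9 1.58-fold (3.54e-05) and the cathepsin Ctsb 1.62-fold (0.000108). Ctss, the cathepsin that trims the invariant chain in antigen-presenting cells, had no tested probe. Among 9 tested class I-like genes outside the H2 names 2 were higher and 2 lower. The neonatal Fc receptor Fcgrt was 3.65-fold lower (limma adjusted p = 2.92e-06) and the protein C receptor Procr 3.17-fold higher (8.62e-06). Ulbp1, a ligand of NKG2D, was at least 1.61-fold higher from the processed signals (0.00150), and Cd1d1, which presents lipids, was 1.22-fold lower (0.0181).

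Markers of immune cells, among them the antigen-presenting cells in which class II genes are usually expressed, were read on the same arrays. Of 22 immune cell markers 13 were tested, and 5 were higher (38.5%, against 29.1% of the array) and 0 lower (against 28.5%). Of the 22, 10 were well above background on all control arrays and 13 on all knockdown arrays. Some were therefore tested only through the knockdown group. The summed signal of all 22, in units of the 75th percentile of each array, lay between 12.3 and 17.2 in control and between 21.0 and 23.2 in knockdown arrays. Laptm5 rose 2.23-fold (limma adjusted p = 0.000108), Coro1a 2.22-fold (0.000125) and Itgam 2.35-fold (0.000189). From the processed signals Cd68 was at least 2.93-fold higher (limma adjusted p = 3.73e-05). Itgax, Lyz2, Ms4a1, Spi1 and Cx3cr1 passed the background on 0 arrays, and Ptprc (CD45) was on 3 arrays of each group. The part of immune cells in the rise of class II genes was not tested.

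Markers of other cell types were counted against the same 29.1% higher and 28.5% lower of the array. Fibroblast and feeder markers were higher for 8 of 12 tested genes and lower for 0, with summed signals of 35.2 to 38.3 in control and 110 to 137 in knockdown arrays, and Thy1 rose 15.8-fold (limma adjusted p = 5.03e-08). Endoderm markers were higher for 16 of 19 and lower for 2, with sums of 92.3 to 101 against 201 to 240. Of the endoderm markers 13 were well above background on all control arrays and 18 on all knockdown arrays. Neural progenitor markers were higher for 0 and lower for 13 of 16, with sums of 238 to 257 against 49.7 to 52.6. Endothelial markers were higher for 2 and lower for 4 of 7, and embryonic stem cell markers were higher for 5 and lower for 7 of 15. In bulk samples a change in the share of cells of a type and a change in RNA per cell cannot be told apart, and the part of these shifts in the MHC changes was not tested.

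**Figure D4:**
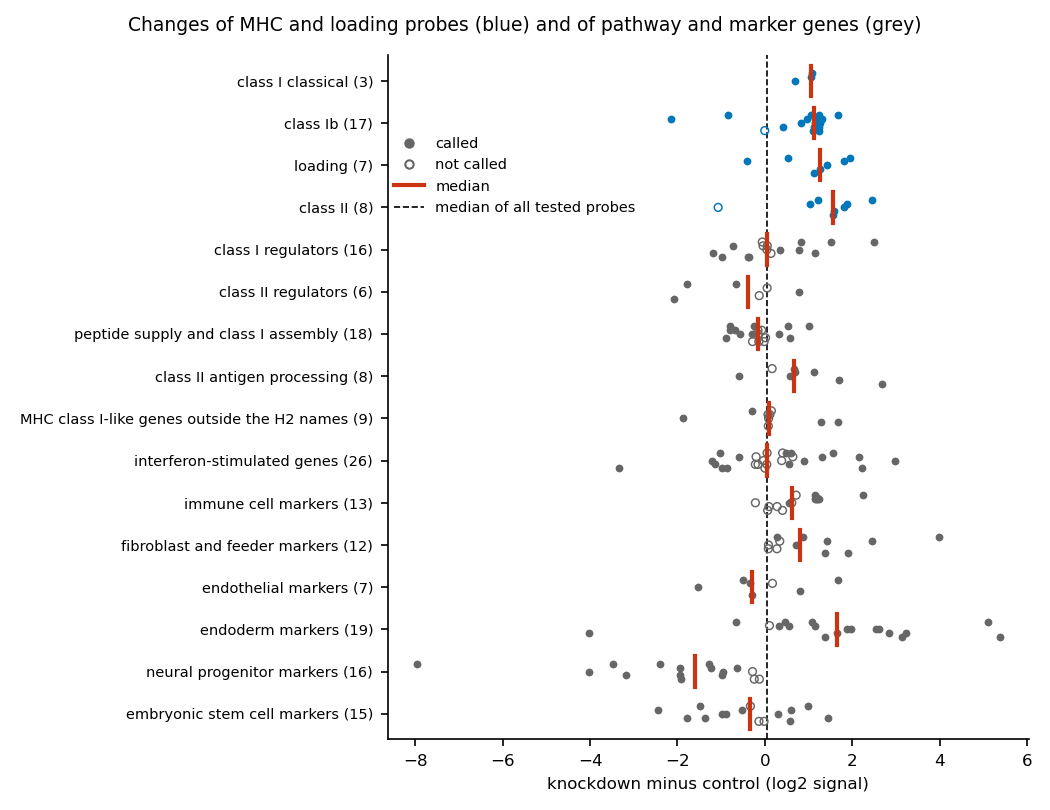
Change in log2 signal of each tested probe of the 4 classes (blue) and of each tested gene of the pathway and marker lists (grey), with the number of points in parentheses, filled where called, red bars at the medians and a dashed line at the median of all tested probes, 0.05. The 4 MHC and loading classes have medians from 1.06 to 1.57, the interferon-stimulated genes and class I regulators have medians of 0.05, and the neural progenitor markers lie below 0.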

How the data were processed

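The deposited scanner files hold spot intensity from Agilent arrays of design 028005, extracted with Agilent Feature Extraction 10.7.3.1 and corrected for background within each array, per the file headers. The authors' deposited value table holds log2 values, whose columns share a median of 7.10 and whose making is not given in the sources used here, and it served as an alternative. It correlated across probes at 0.99999 or above, to 5 decimals, with normexp (offset 50) and quantile normalization of the spot signals.

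Processed signals of 1 probe's spots were averaged with outlier spots left out and put on the log2 scale, and each array's 75th percentile was subtracted. A probe was well above background on an array if at least 50% of its spots were. The 29097 probes well above background on all 4 arrays of a group entered 1 limma fit over the 8 arrays (limma 3.58.1, R 4.3.3; lmFit, then eBayes; two-sided), and p-values were adjusted by Benjamini-Hochberg across these probes with a threshold of 0.05. A dim group got a bound from the lowest signal well above background on each of its arrays. Such bounds were taken from the processed signals only and need not hold under other background handling. For 5 within-array differences an exact permutation test over 70 splits was used. Names were updated through a RefSeq table (26300 probes by accession, 2044 by symbol, 355 by synonym, 26982 unchanged). Probe positions are those of the files (mm9). Exon and UTR annotation was not analysed here. Probes were compared with blastn 2.17.0. The fit and the permutation test were tested on simulated data.

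The probes, lists and tests were chosen with earlier results of these data known. Named are all tested genes of the set, with values of every array for the brightest called probe, and up to 4 called genes of each list with the smallest adjusted p; other genes were chosen after their values were seen. The 8 arrays limit the precision. Alternatives were median scaling, quantile normalization, normexp, the authors' values, other filters, 1 probe per gene, slide and replicate blocks, averaged knockdown pairs, each array left out, and, added after the data were seen, knockdown 2 and 4 left out and arrays exchanged only within slides for the 5 differences. A few genes of the lists and 1 probe sequence are not reported here.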

Additional observations from a re-analysis of the deposited data

Results flagged for a closer look

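Of 74 groups of 4 arrays, 3 held 1 array whose gap to the others exceeded Dixon's 95% critical value, where chance gives about 1 in 20 groups. H2-K1 read 3.75 in control 3, and the other control arrays lay between 3.45 and 3.50. Without control 3 the change of H2-K1 A_51_P198434 was 1.16. Tap2 read 0.16 in control 3 as well, with the others between -0.15 and -0.10, and without that array Tap2 A_55_P2017645 changed by 1.20. H2-M5 read -5.70 in knockdown 1, with the others between -4.94 and -4.79, all of them below background, and without that array H2-M5 A_55_P2135079 changed by -1.94. All 3 probes were called in limma without the array named.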

How the results depend on the processing

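Between 29 and 31 of the tested probes were called higher, and between 2 and 4 lower, under each of the 18 alternatives that fit probes, and 27 and 3 with 1 probe per gene. With the replicate block the counts were 31 and 3. The deviations of same-numbered arrays correlated at 0.11, -0.12, 0.11 and -0.19. Most same-numbered arrays lay on different slides, so these values cannot show whether the replicate numbers pair the arrays. Over all probes the block gave 15019 calls. Of 696 pairs of a probe and an alternative, 692 kept the call, 3 lost it (H2-Gs10 under 2 of them, H2-Ke6 under 1) and 1 gained it (Ciita). Where a probe was called in the main fit or in the alternative, 0 pairs reversed direction. A change of sign in a probe called in neither was not counted as a reversal. With the knockdown pairs averaged, or with arrays exchanged only within slides, Psmb8 minus Psmb5 (2.37), Psmb9 minus Psmb6 (1.94) and H2-D1 minus H2-K1 (-0.39) kept their values without passing, since the exact permutation test cannot go below 0.0667 and 0.0833 there. H2-D1 minus H2-K1 gave 0.133 with the pairs averaged, above that limit. With 1 array left out these differences ranged from 2.28 to 2.44, from 1.91 to 2.01 and from -0.48 to -0.34, and did not pass without any 1 knockdown array. Tap2 minus Tap1 turned to 0.30 with normexp and to 0.54 in the authors' values, and the cause was not tested. Dim probes, 25 of the 62, allow no statement on their genes.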
